A study of Mus musculus with 22 samples.

Results

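The 39 ribosomal protein genes described here are those protein-coding genes of the ac4C peak table whose symbols begin with Rpl, Rps, Mrpl or Mrps, without the ribosomal protein S6 kinases. They hold 64 of the 9857 ac4C peaks, in 42 separate stretches of the genome. Of these, 47 peaks in 28 genes belong to the cytosolic ribosome and 17 peaks in 11 genes to the mitochondrial ribosome. The symbol rule also took in Rpl7l1, a paralog of Rpl7 with 2 peaks, which is counted with the cytosolic genes.

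Kidneys came from 6 male db/db mice and 5 male db/m mice. Both copies of the leptin receptor gene are defective in db/db mice, a model of obesity with type 2 diabetes, and db/m mice are nondiabetic heterozygous controls. The mice were obtained at 8 weeks of age, and the age at which these kidneys were taken is not given in the sources used here. No treatment is named for any of these animals, and the fragments came from whole kidney, so all cell types of the organ are mixed. Each animal gave an acRIP-seq library, in which an antibody pulls down mRNA fragments that carry N4-acetylcytidine (ac4C), and an RNA-seq library made without the antibody step. The first is called IP below. Levels are CPM, the share of a library's reads in peaks that fell in one peak, after scaling by the trimmed mean of M-values (TMM).

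Cytosolic ribosomes translate the mRNAs of the nucleus and are built from a small and a large subunit, each a scaffold of rRNA covered with proteins of the Rps and Rpl families. Mitochondrial ribosomes carry proteins of the Mrps and Mrpl families, which are encoded in the nucleus, made in the cytosol and imported to translate the few mRNAs of the mitochondrial genome. Most cytosolic ribosomal protein mRNAs start with a C followed by a run of pyrimidines, the 5′ terminal oligopyrimidine (TOP) tract, through which mTOR signalling sets their translation together. NAT10, the enzyme that writes ac4C, also acetylates rRNA and tRNA.

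Because the TOP tract is the sequence feature for which these genes are best known, the start regions of 8 genes whose values are given below are shown, 5′ to 3′ on the gene's strand, from 15 bases before the annotated first base through 25 bases from it. They are RefSeq sequences of GRCm38.p6, and capitals mark the longest run of a C followed by at least 4 C or T that begins within 10 bases of that first base. Rps2 lies at chr17:24720048-24720087 on the plus strand, Rpl5 at chr5:107900513-107900552 on the plus strand, Rpl38 at chr11:114668565-114668604 on the plus strand, and Rplp2 at chr7:141447636-141447675 on the plus strand. Rps6 lies at chr4:86857343-86857382 on the minus strand, Rps9 at chr7:3704026-3704065 on the plus strand, Rpsa at chr9:120127751-120127790 on the plus strand, and Mrps5 at chr2:127587411-127587450 on the plus strand.
Rps2: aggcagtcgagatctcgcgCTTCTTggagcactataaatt
Rpl5: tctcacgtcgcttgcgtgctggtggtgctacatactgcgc
Rpl38: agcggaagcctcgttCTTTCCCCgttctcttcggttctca
Rplp2: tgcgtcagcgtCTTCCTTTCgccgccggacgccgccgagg
Rps6: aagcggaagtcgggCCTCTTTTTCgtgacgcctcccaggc
Rps9: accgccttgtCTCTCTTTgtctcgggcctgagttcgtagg
Rpsa: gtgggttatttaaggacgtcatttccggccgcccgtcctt
Mrps5: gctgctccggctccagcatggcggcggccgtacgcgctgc

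A start region was found for 34 of the 39 genes. The annotated first base was itself a C with at least 4 C or T after it, whether or not the run began earlier, in 5 of 29 cytosolic starts (17.2%), in 0 of 10 mitochondrial starts and in 2.51% of all 32851 starts of the table. A run beginning within 10 bases on either side was found in 13 cytosolic starts (44.8%), 6 of the 10 mitochondrial starts and 30.7% of all starts. The cytosolic windows printed above hold a run more often than that and do not stand for the members. Those of Rpl4, Rplp0 and Rpl11, also named below, hold none and are not printed. The search used the transcribed strand only, and annotated first bases can lie some bases off the true ones, so a start without the run, such as that of Rpl5, shows only that these letters are not in this window.

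The peaks covered part of each ribosome. Of the 46 listed large-subunit genes of the cytosolic ribosome 15 had a peak, and of the 31 small-subunit genes 12 had one. Among mitochondrial proteins, 6 of 49 large-subunit genes and 5 of 29 small-subunit genes had a protein-coding peak. The authors called peaks once for each genotype, not for each animal. The db/db list held 34 of the 64 peaks and the db/m list 30, and 20 genes were in both, 11 only in the db/db list and 8 only in the db/m list. The enrichment that the authors deposited for each peak had a median of 2.58 in cytosolic, 3.92 in mitochondrial and 5.09 in all peaks. This value of the peak caller is not the ratio of IP to RNA-seq reads used below. The deposited enrichment thus had a lower median in both ribosomes than in the table as a whole. Among the members it was highest at Rpl37, at 23.4, on the few reads described below.

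Each IP library held 7577171 to 10293757 reads in peaks, and each RNA-seq library 3151035 to 3352535. Known kidney genes were present, as RNA-seq CPM of Slc27a2, a fatty acid transporter of the proximal tubule, averaged 4185 in db/db and 5836 in db/m mice. Summed over the 5 proximal tubule markers that had a peak, RNA-seq levels were 3936 to 5638 CPM in db/db and 6421 to 7401 CPM in db/m mice. These sums did not overlap, but Slc27a2 alone made up most of each. All 5 markers had a log2 fold change below 0. The test called 3 of them lower, Slc27a2, Lrp2 and Slc34a1, where it called 5.93% of all peaks lower. Slc5a2 (-0.16, adjusted p = 0.654) and Aqp1 (-0.23, adjusted p = 0.5) were not called. The 4 markers of the loop, distal tubule and collecting duct summed to 444 to 956 CPM in db/db and 551 to 838 CPM in db/m mice. These sums overlapped. Slc12a1 (log2 fold change 0.06, adjusted p = 0.907) and Calb1 (0.05, adjusted p = 0.918) hardly differed, and Aqp3 was not called (0.47, adjusted p = 0.0611). Only Aqp2, the water channel of the collecting duct, passed the test (44.3 against 17.0 CPM, log2 fold change 1.38, adjusted p = 7.82e-05). The 7 markers of podocytes and endothelium summed to 88.2 to 117 CPM and 98.0 to 106 CPM. C1qa, the only one of 14 leukocyte genes with a peak, was at 3.48 to 36.0 CPM and 5.07 to 15.3 CPM, and the adipocyte genes Adipoq and Plin1 together reached at most 0.316 CPM. The part of these differences in the results below was not tested, and in whole kidney fewer cells of a type and less RNA per cell cannot be told apart. Of the libraries, db/m animal 2 stood apart at the cytosolic genes, and without db/db animal 6 more peaks of the whole table were called between genotypes (1401 against 1111 in RNA-seq and 821 against 636 in IP). The medians of both ribosomes and the gene lists are therefore also given without these animals, and the calls of Rps2, Rpl5 and Mrps5 with each animal left out in turn.

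Most cytosolic ribosomal protein peaks lay slightly higher in db/db kidney and most mitochondrial peaks slightly lower. The 17 mitochondrial peaks include some with few reads, and the shift was smaller in the genes with more reads, given below. In RNA-seq, 46 of 47 cytosolic peaks had a log2 fold change above 0, where 49.5% of all peaks did, and their median was 0.30 against -0.01 for all peaks. Of the 17 mitochondrial peaks, 2 were above 0, and their median was -0.29. In IP, 44 of 47 cytosolic and 3 of 17 mitochondrial peaks were above 0, where 50.5% of all peaks were, and the medians were 0.33 and -0.22. Peaks that overlap or lie in the same gene share reads and all peaks share the same 11 animals, so these counts are not independent trials.

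Single genes seldom passed the test. In RNA-seq, 3 cytosolic peaks were higher in db/db mice at an adjusted p under 0.05, both peaks of Rps2 and 1 of Rpl5, where 5.34% of all peaks were. Both peaks of Mrps5, the 2 of 17 mitochondrial peaks called, were lower, where 5.93% of all peaks were. In IP, the same 3 cytosolic peaks were higher, where 3.07% of all peaks were, and 1 Mrps5 peak was lower, where 3.38% of all peaks were. Shares of 3 in 47 and 1 or 2 in 17 are near these backgrounds or rest on 1 gene. With library sizes not scaled by TMM, 18 member peaks were called higher and 0 lower in RNA-seq, where 7.78% of all peaks were called higher, and 7 higher and 0 lower in IP, where 4.32% were. No cytosolic peak was called lower and no mitochondrial peak higher in either kind of library. At an unadjusted p under 0.05, 32 cytosolic peaks were higher and 0 lower in RNA-seq, where 12.3% of all peaks were higher, and 16 were higher and 0 lower in IP, where 10.6% were. Without db/m animal 2 the cytosolic medians were 0.23 in RNA-seq and 0.24 in IP, and without db/db animal 6 they were 0.28 and 0.31. The mitochondrial medians were -0.34 and -0.28 without db/m animal 2, and -0.38 and -0.22 without db/db animal 6. Other animals moved them more. The RNA-seq median was -0.064 without db/m animal 4. The IP median was -0.12 without db/db animal 3, -0.14 without db/db animal 4 or db/m animal 4, -0.15 without db/db animal 1 and -0.36 without db/db animal 5. For 7 mitochondrial genes the most-read peak had a mean of 50 RNA-seq reads or more. Their medians were -0.11 in RNA-seq and -0.13 in IP, with 2 above 0 in IP. Without TMM their values lay on both sides of 0. In IP, Mrpl9, Mrpl38 and Mrpl24 were at 0.30, 0.25 and 0.06. Mrps26, Mrps18a, Mrpl10 and the longer Mrps5 peak were at -0.05, -0.22, -0.26 and -0.38. In RNA-seq, Mrpl38 was at 0.20, and Mrpl9, Mrps26 and Mrpl24 at -0.01, -0.01 and -0.03. Mrps18a, Mrpl10 and Mrps5 were at -0.22, -0.25 and -0.31.

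**Figure D1:**
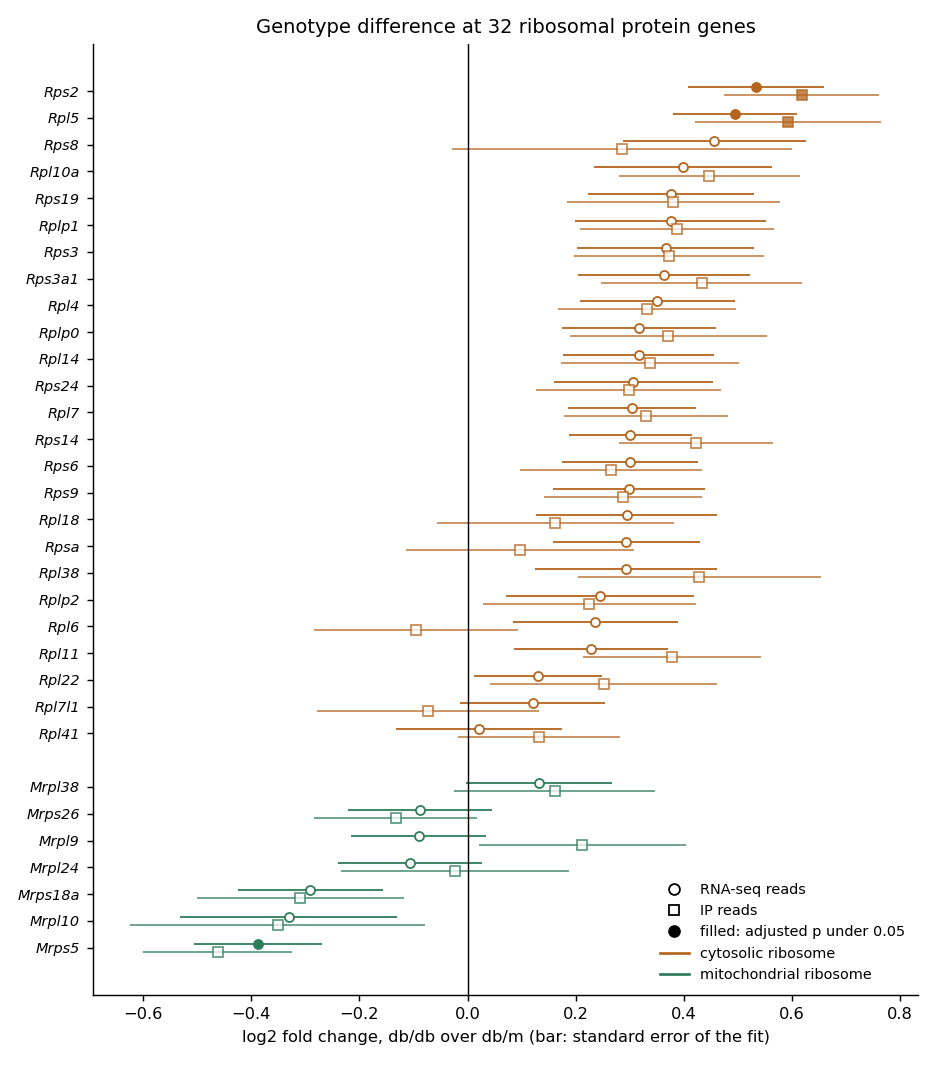
Log2 fold change of db/db over db/m mice for the 32 genes whose most-read peak had a mean of 50 RNA-seq reads or more, with the standard error of the fit. Circles stand for RNA-seq reads, squares for IP reads, and filled symbols for an adjusted p under 0.05. All 25 cytosolic genes lie right of 0 in RNA-seq and 6 of 7 mitochondrial genes lie left of it, while Rps2, Rpl5 and Mrps5 alone have a filled symbol.

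Rps2 encodes the small-subunit protein uS5, which lies near the mRNA entry channel of the ribosome. Its peak, chr17:24720236-24720614 within the gene, has the same 379 bases in both lists and so counts as 2 peaks. RNA-seq levels were 538, 336, 488, 478 and 478 CPM in the 5 db/m mice, and the lowest, median and highest of the 6 db/db mice were 569, 656 and 770 CPM. Every db/db animal was above every db/m animal, and db/m animal 2 was the lowest of all. The log2 fold change was 0.53 ± 0.13 (SE, adjusted p = 0.00848). IP levels were 740, 471, 653, 774 and 642 CPM in db/m mice and 844, 1017 and 1170 CPM in db/db mice. They did not overlap either, with a log2 fold change of 0.62 ± 0.14 (SE, adjusted p = 0.0121). The two-sided exact permutation p over the 11 animals was 0.00216 for both kinds of library, the smallest that the 462 splits can give. The genotypes did not overlap in 7.89% of all peaks in RNA-seq and in 5.77% in IP. Leaving out each animal in turn kept Rps2 called in 11 of 11 fits of either library type.

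Rpl5 encodes the large-subunit protein uL18, which binds 5S rRNA and, when free of the ribosome, binds MDM2 and so links ribosome assembly to p53. The peak with most reads, chr5:107903368-107903719, was in the db/db list only. Its IP comparison between genotypes is therefore not independent of how the peak was chosen. RNA-seq levels were 315, 256, 268, 332 and 279 CPM in db/m mice and 360, 399 and 502 CPM (lowest, median, highest) in db/db mice. The genotypes did not overlap, and db/db animal 5 was the highest. The log2 fold change was 0.49 ± 0.11 (SE, adjusted p = 0.0072, exact permutation p = 0.00216). IP levels were 123, 81.9, 117, 110 and 87.5 CPM in db/m mice and 116, 155 and 217 CPM in db/db mice. They overlapped, since db/db animal 3 at 116 CPM lay below db/m animals 1 and 3. The IP log2 fold change was 0.59 ± 0.17 (SE, adjusted p = 0.0462), and the call was kept in 3 of 11 fits that each left out 1 animal, those without db/db animal 3, db/db animal 6 or db/m animal 1, with adjusted p of 0.0241 to 0.108 over the 11. The RNA-seq call was kept in 11 of 11. A second Rpl5 peak of 61 bases nearer the 3′ end, chr5:107907959-107908019, had a log2 fold change of 0.46 in RNA-seq (adjusted p = 0.131).

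Mrps5 encodes the mitochondrial protein uS5m, the counterpart of the Rps2 product. Its peaks, chr2:127591901-127595816 in the db/m list and chr2:127591931-127598189 in the db/db list, span 3916 and 6259 bases of the gene and share most of their reads. RNA-seq levels in the shorter peak were 222, 180, 212, 212 and 189 CPM in db/m mice and 132, 149 and 193 CPM in db/db mice. They overlapped only through db/db animal 6 at 193 CPM and db/m animals 2 and 5. The log2 fold change was -0.39 ± 0.12 (SE, adjusted p = 0.0411). IP levels were 209, 179, 240, 196 and 251 CPM in db/m mice and 127, 149 and 174 CPM in db/db mice, which did not overlap (log2 fold change -0.52 ± 0.14 SE, adjusted p = 0.0354). The longer peak, which has more reads, gave -0.39 ± 0.12 in RNA-seq (SE, adjusted p = 0.0417) and -0.46 ± 0.14 in IP (SE, adjusted p = 0.0528). There the genotypes overlapped in both kinds of library. The RNA-seq call of the shorter peak was kept in 3 of 11 fits with 1 animal left out, those without db/db animal 5, db/db animal 6 or db/m animal 2 (adjusted p 0.00766 to 0.105 over the 11), and it was lost with library sizes that were not scaled by TMM (adjusted p = 0.0664). The IP call of that peak was kept in the same 3 of 11 fits (adjusted p 0.0177 to 0.141 over the 11) and was also lost without TMM (adjusted p = 0.0782).

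**Figure D2:**
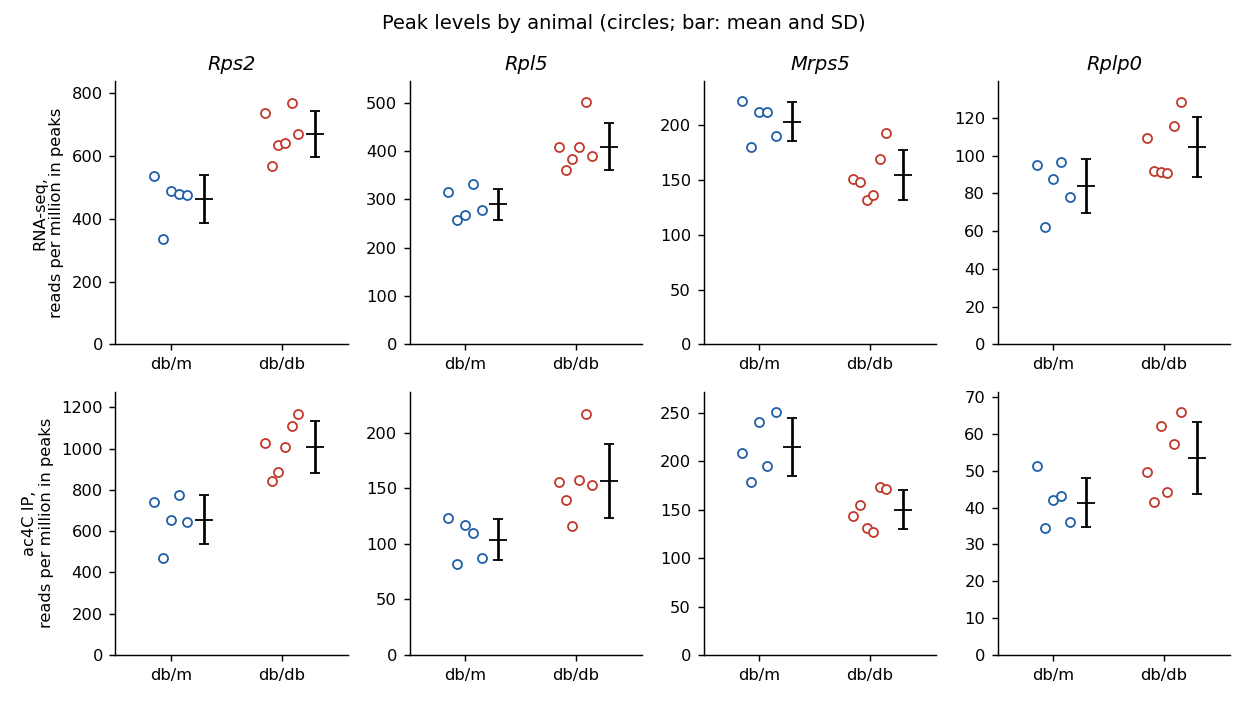
RNA-seq (top) and ac4C IP (bottom) levels in CPM for Rps2, Rpl5, Mrps5 (the shorter of its peaks) and Rplp0, with 1 circle for each of 5 db/m (blue) and 6 db/db (red) mice, and the mean with SD. Rps2 is separated by genotype in both libraries, Rpl5 in RNA-seq and the shorter Mrps5 peak in IP, and Rplp0 overlaps in both. The longer Mrps5 peak, which has more reads and stands for the gene in the plot of fold changes, is not drawn. It overlaps in both libraries.

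Several ribosomal protein genes serve as reference genes in quantitative PCR. Rplp0, which encodes the P0 protein of the large-subunit stalk, had RNA-seq levels of 95.0, 62.1, 87.3, 96.7 and 77.9 CPM in db/m mice and 90.6, 101 and 128 CPM in db/db mice, which overlapped (log2 fold change 0.32 ± 0.14 SE, adjusted p = 0.175, exact permutation p = 0.0584). Rpl4, a large-subunit protein that reaches into the exit tunnel, had 2110, 1222, 1820, 2063 and 1673 CPM in db/m mice and 1805, 2300 and 2678 CPM in db/db mice. These overlapped, with a log2 fold change of 0.35 ± 0.14 (SE, adjusted p = 0.134, exact permutation p = 0.0346). Neither passed the test over all peaks, and with library sizes not scaled by TMM Rpl4 did (adjusted p = 0.0363). Rpl13a, Rps18 and Rpl19, other common reference genes, had no peak of their own in the table.

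Rpl11 and Rps19 are, like Rpl5, known from the p53 response to faulty ribosomes, and RPS19 is the gene most often mutated in Diamond-Blackfan anaemia. Rpl11 averaged 269 ± 42.7 CPM in 6 db/db and 229 ± 41.1 CPM in 5 db/m mice in RNA-seq (SD, log2 fold change 0.23, adjusted p = 0.339). Rps19 averaged 316 ± 65.5 CPM and 243 ± 43.7 CPM (SD, log2 fold change 0.38, adjusted p = 0.133). The animals of both genotypes overlapped for both genes.

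Animals of one genotype differed widely in the cytosolic genes. For the 25 cytosolic genes with a mean of 50 RNA-seq reads or more, the median gene of db/m animal 2 was at 0.645 of the geometric mean of the 11 animals in RNA-seq and at 0.645 in IP, with 1 of 25 genes above that mean. The other 4 db/m animals were at 0.869 to 1.01 in RNA-seq. In db/db mice the values ran from 0.901 in animal 3 and 0.952 in animal 2 to 1.18 in animal 1, 1.19 in animal 6 and 1.29 in animal 5. Animals 2 and 3 of the db/db mice thus lay within the range of the db/m mice. IP and RNA-seq gave the animals nearly the same values, and the titles assign both libraries to the same animal. For the 7 mitochondrial genes the values ran from 0.790 to 1.11 in db/db and from 0.912 to 1.20 in db/m mice in RNA-seq, with db/db animal 3 the lowest.

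**Figure D3:**
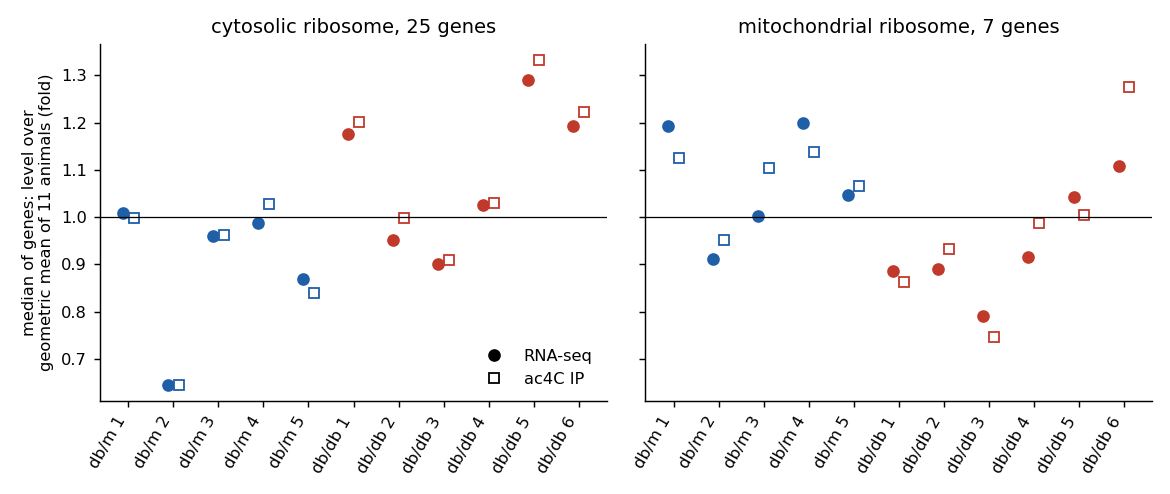
Median over genes of each animal's level relative to the geometric mean of the 11 animals, for 25 cytosolic and 7 mitochondrial genes, with filled circles for RNA-seq, open squares for IP, blue for db/m and red for db/db mice. The cytosolic genes of db/m animal 2 lie lowest, at 0.645 in both libraries. Both symbols of an animal lie close together for the cytosolic genes and farther apart for the mitochondrial ones, as in db/db animal 6 (1.11 and 1.28).

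As a share of all RNA-seq reads in peaks, the most-read peaks of the cytosolic genes took 1.32% to 1.73% in db/db mice and 0.877% to 1.31% in db/m mice. The mitochondrial genes took 0.0688% to 0.0867% and 0.0721% to 0.0894%. Per kilobase of peak, the highest RNA-seq levels were those of Rpl4 (12734 ± 1714 CPM per kb in db/db and 9986 ± 2012 in db/m mice, SD) and Rps14 (4289 ± 357 and 3480 ± 449, SD). Rpl14, Rpl38, Rps3a1 and Mrpl38 followed, at 2420, 2192, 1831 and 1764 CPM per kb over all animals. Rps14, whose product forms part of the mRNA platform of the small subunit, was not called (log2 fold change 0.30 ± 0.11 SE, adjusted p = 0.101), although its RNA-seq levels, 241 to 346 CPM in db/m and 352 to 427 CPM in db/db mice, did not overlap. DESeq2 called it (adjusted p = 0.0399). Peaks that cross introns have more bases than the mRNA they cover, so levels per kb are set too low for them.

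IP relative to RNA-seq reads did not differ detectably between genotypes at any of the 64 peaks. None was called, by the edgeR interaction test or by DESeq2, and 4 had an unadjusted p under 0.05, while 0.0304% of all peaks were called and 6.76% had such an unadjusted p. The median change was 0.02 on the log2 scale at cytosolic and at mitochondrial peaks. For Rps2 it was 0.10 ± 0.08 (SE, adjusted p = 0.848), for Rpl5 0.10 ± 0.10 (SE, adjusted p = 0.868) and for the longer Mrps5 peak -0.06 ± 0.10 (SE, adjusted p = 0.945). The shifts in IP reads of these genes were thus of about the size of those in RNA-seq reads. Across the 32 genes of the plot of fold changes, the IP and the RNA-seq fold change had a Pearson r of 0.89, a description across genes measured in the same animals. Within the 25 cytosolic genes alone r was 0.70. Peaks in the db/db list only had a median relative change of 0.09 (9 of 12 above 0) and those in the db/m list only -0.08 (3 of 8 above 0), with 0 called in both. The lists were made from the same IP and RNA-seq reads, so these values are not independent of them.

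IP over RNA-seq reads within the 11 animals separated the members clearly. This ratio is on a log2 scale whose 0 is set by TMM over all peaks, and it compares peaks with each other, not with RNA outside peaks. The median of all 9857 peaks was 0.14. Cytosolic peaks had a median of -0.68, with 12 called above 0 and 33 below, and mitochondrial peaks a median of -0.15, with 2 called above and 8 below. Of all peaks 32.9% were called above and 28.3% below. Among all 5247 peaks with a mean of 50 RNA-seq reads or more the median was -0.19, and among such cytosolic peaks, 1 for each gene, it was -0.92. The cytosolic peak kept was the most-read of its gene, a choice not made for the 5247 peaks, so these medians are not matched. The cut of 50 reads is on RNA-seq, by which the ratio divides, so it leaves out more high ratios than low ones. Of all peaks 5455 were above 0 and 4402 below, and of the 5247 kept 2027 and 3220.

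The highest cytosolic ratios, in the most-read peak of each gene with at least 50 RNA-seq reads, were those of Rpsa, Rplp1, Rps2 and Rplp2. Rpsa encodes uS2, known also as the laminin receptor, and its ratio was 1.08 ± 0.29 over 11 animals (SD, range 0.66 to 1.44) in a 753-base peak, chr9:120130846-120131598. Rplp1 and Rplp2 encode the acidic stalk proteins P1 and P2, which bring elongation factors to the ribosome, and their ratios were 0.70 ± 0.06 (SD, range 0.61 to 0.83) and 0.38 ± 0.09 (SD, range 0.20 to 0.48). Rplp0, whose product anchors P1 and P2, stood at -1.09 ± 0.18 (SD, range -1.29 to -0.64), so no animal's ratio overlapped between it and its partners. The Rplp2 peak of 3404 bases also covers the snoRNA gene Snora52. Rps2 was at 0.44 ± 0.12 (SD, range 0.31 to 0.69). Rps10, which fell below the cut of 50 reads, had a higher mean ratio than any of these and is described below.

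In the most-read peak of each gene with at least 50 RNA-seq reads, the lowest ratios were those of Rpl5, Rpl38, Rpl22 and Rpl14. A second peak of Rps6, described below, was lower still. Rpl5 was at -1.55 ± 0.19 (SD, range -1.81 to -1.29). Rpl38, a small protein known for its part in the translation of Hox mRNAs, was at -1.31 ± 0.19 (SD), Rpl22 at -1.30 ± 0.29 (SD) and Rpl14 at -1.30 ± 0.11 (SD). The ranges of these 4 genes overlapped each other and lay wholly below 0. Rpl4, the member with most RNA-seq reads, was at -1.23 ± 0.09 (SD). Large-subunit peaks had a median of -0.87 and small-subunit peaks one of -0.60.

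Among mitochondrial genes with at least 50 RNA-seq reads the ratios ran from -0.67 to -0.01. Mrps15 fell below that cut, with means of 15.1 RNA-seq and 75.5 IP reads, and was at 0.66 ± 0.54 (SD). Its peak, with the same bases in both lists, made up the 2 mitochondrial peaks called above 0. Mrps26, a small-subunit protein with no bacterial counterpart, was highest at -0.01 ± 0.17 (SD), followed by Mrps5 at -0.15 ± 0.14 (SD), Mrpl10 at -0.16 ± 0.40 (SD) and Mrpl9 at -0.42 ± 0.41 (SD). Mrpl38, Mrps18a and Mrpl24 were lowest, at -0.67 ± 0.19, -0.62 ± 0.20 and -0.61 ± 0.22 (SD). Neighbours in this order overlapped. The Mrps18a peak of 11770 bases also overlaps Rsph9, and strand does not appear to be used in the counts, since, where peaks of opposite strand overlapped by at least 90%, 46 of 52 such pairs had read totals within 10% of each other. Its value may therefore hold reads of either gene.

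**Figure D4:**
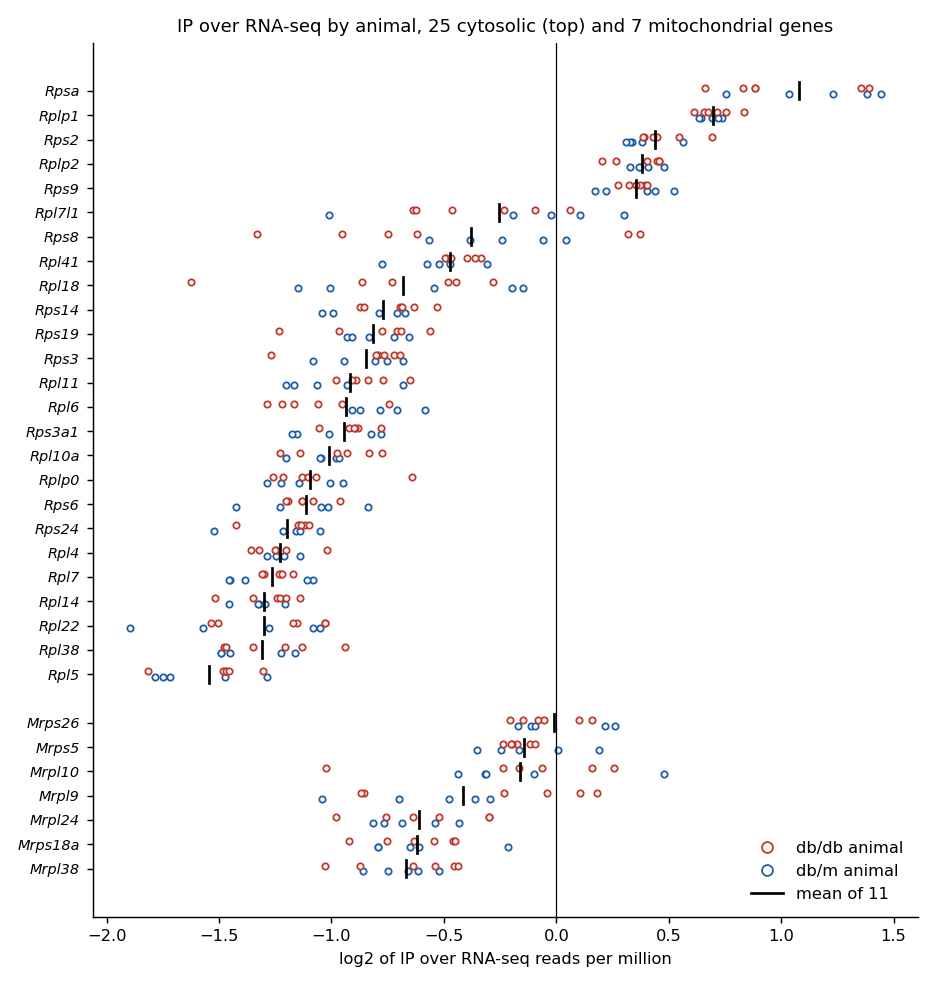
Log2 of IP over RNA-seq CPM for each of 11 animals (red db/db, blue db/m) and their mean (black bar) in the most-read peak of 25 cytosolic and 7 mitochondrial genes. Only the means of Rpsa, Rplp1, Rps2, Rplp2 and Rps9 lie above 0, and in every gene the animals of both genotypes overlap.

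Peaks of the same gene could differ in this ratio. Rps9, which encodes uS4, had a peak of 267 bases at its 3′ end, chr7:3706631-3706897, at 0.35 ± 0.10 (SD, range 0.17 to 0.52), and one of 1398 bases upstream, chr7:3704436-3705833, at -0.55 ± 0.17 (SD, range -0.79 to -0.33). The 3′ peak was higher in 11 of 11 animals, by 0.56 to 1.27. Rps6, which encodes the S6 protein that mTOR signalling phosphorylates through the S6 kinases, had a db/db-list peak of 1096 bases at -1.11 ± 0.15 (SD) and, inside it, a db/m-list peak of 520 bases toward the 5′ end at -2.11 ± 0.40 (SD). The longer peak held a mean of 3201 RNA-seq reads and the nested one 217, so most reads of the longer peak lay outside the nested one. In Rps24 the 61-base peak was higher than the 2488-base peak around it in 11 of 11 animals, and in Rpl5 the peak nearer the 3′ end was higher in 10 of 11. Separate peaks of Rps14 differed less, with mean ratios of -0.87 and -0.77. Rpl7 showed how a boundary can set a count, since 60 more bases at one end took the mean from 852 to 2854 RNA-seq reads and the ratio from -0.83 to -1.27. Over the 32 genes, the 5 peaks with a ratio above 0 had their midpoint at a median of 74.2% of the gene's length from the 5′ end (range 54.7% to 95.5%). The 27 others had a median of 45.3% (range 4.60% to 98.1%). The Pearson r between ratio and midpoint position over the 32 genes was only 0.28.

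**Figure D5:**
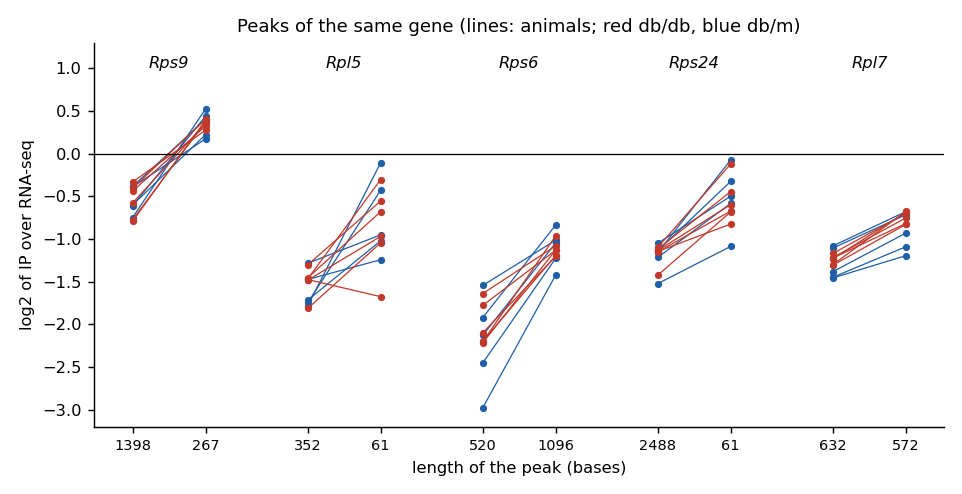
Log2 of IP over RNA-seq for pairs of peaks in Rps9, Rpl5, Rps6, Rps24 and Rpl7, named on the horizontal axis by their length in bases, with 1 line for each of 11 animals (red db/db, blue db/m). The peak with the higher mean ratio is drawn on the right, so the direction of the lines follows from that order. In Rpl5 1 of the 11 lines falls, and in the other genes none does.

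Of the members, 9 peaks in 7 genes had a mean under 50 RNA-seq reads and say little about abundance. They are in Rps10, Rps13, Rpl37, Mrps15, Mrps24, Mrpl3 and Mrpl51, and the Mrpl3 and Mrpl51 peaks lie beyond the annotated gene end. The Rps10 peaks had few RNA-seq reads (means of 29.9 and 11.4) and many IP reads (261 and 84.5), with ratios of 1.46 ± 0.53 and 1.27 ± 0.65 (SD). Rpl37, a large-subunit protein, had 12, 7, 0, 3, 0 and 6 IP reads in db/db mice and 0 in each of the 5 db/m mice, which is at least 1.69-fold higher in db/db mice with 3 reads allowed for a count of 0 in each library. That limit rests on db/db animal 1, which held 12 of the 28 reads, and is 1.10-fold without it. Rpl37 was not called in IP (adjusted p = 0.0727), and RNA-seq held 1 read in db/db and 3 in db/m mice. Its peak was in the db/db list only, so the choice of peak itself favoured more IP reads in db/db mice. The limit and the adjusted p are therefore not independent of that choice. Ribosomal protein genes have many processed pseudogenes, and how reads that match several places were counted is not given in the sources used here, so values of single members are uncertain to that extent.

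Other genes of the translation machinery were compared in the same fits. Ribosomal proteins that carry other names were represented by Fau, Dap3 and Gadd45gip1. Fau, whose product yields eS30, rose in RNA-seq in both of its overlapping peaks (log2 fold change 0.48 ± 0.14 SE, adjusted p = 0.0345) and not detectably in IP (0.46, adjusted p = 0.107). The RNA-seq call was lost without db/m animal 2 (0.39, adjusted p = 0.0605). Dap3 had a log2 fold change of -0.07 in RNA-seq (adjusted p = 0.858). Of 35 peaks of 13 translation factors and other TOP mRNAs, 4 in 2 genes were higher in RNA-seq and 0 lower, with a median of 0.21, where 5.34% of all peaks were higher. They were overlapping pairs of peaks, those of Tpt1, a growth-related TOP mRNA (0.38 ± 0.11 SE, adjusted p = 0.0308), and Npm1, the nucleolar chaperone nucleophosmin (0.33 ± 0.10 SE, adjusted p = 0.0489). Without db/m animal 2 neither gene was called (adjusted p = 0.0545 for Tpt1 and 0.0997 for Npm1), and 0 peaks of the list were higher and 2 lower. Without db/db animal 6, 12 were higher and 0 lower. In IP none was called, with Tpt1 at 0.38 (adjusted p = 0.0609) and Nap1l1, a histone chaperone, at -0.42 (adjusted p = 0.106). Without db/db animal 6, 6 peaks were higher in IP, those of Tpt1 among them (adjusted p = 0.0416).

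Of 100 peaks of 38 ribosome biogenesis genes, 8 were higher and 1 lower in RNA-seq, and 4 higher and 2 lower in IP. The 8 higher in RNA-seq lay in only 3 genes. In IP the 4 higher lay in 3 genes and the 2 lower in 1. Of all peaks 5.34% were higher and 5.93% lower in RNA-seq, and 3.07% and 3.38% in IP, so the IP counts were near the background. Without db/m animal 2 the counts were 6 and 1 in RNA-seq and 1 and 0 in IP, and without db/db animal 6 they were 9 and 3, and 4 and 0. Utp20, a component of the small-subunit processome, had the smallest p, with a log2 fold change of 1.28 ± 0.16 in RNA-seq (SE, adjusted p = 2.45e-05) and 1.41 ± 0.21 in IP (SE, adjusted p = 0.000308). Nhp2, an H/ACA snoRNP protein, fell in RNA-seq (-0.81 ± 0.15 SE, adjusted p = 0.00127), and Eif6, which keeps the subunits apart, rose in IP (0.86 ± 0.24 SE, adjusted p = 0.0349) and in RNA-seq (0.96 ± 0.22 SE, adjusted p = 0.00609). Without db/m animal 2 the Eif6 call was lost in IP (adjusted p = 0.0611) and the RNA-seq calls of Utp20, Nhp2 and Eif6 were kept. None of the 100 was called for IP relative to RNA-seq reads. Of 13 peaks of 9 genes for mitochondrial translation and ribosome assembly, 1 had a log2 fold change above 0 in RNA-seq and 0 in IP, with medians of -0.28 and -0.35. None was called. Without db/db animal 6, 2 were lower in RNA-seq, and without db/m animal 2 the IP median was -0.19. Tsfm, the mitochondrial elongation factor Ts, was at -0.38 in RNA-seq (adjusted p = 0.107) and -0.61 in IP (adjusted p = 0.141), Taco1, a translational activator of a cytochrome c oxidase subunit, at -0.28 in RNA-seq (adjusted p = 0.187), and Mtg2, a GTPase of mitochondrial ribosome assembly, at -0.58 in IP (adjusted p = 0.263).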

How the data were processed

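For kidney of 6 db/db and 5 db/m mice, the authors called ac4C peaks by genotype from aligned reads and deposited raw counts of reads in each peak and library. The labels name GRCm38, and the aligner, peak caller and counter are not given in the sources used here. Their fold enrichment is the peak caller's own value, deposited with its p-value and FDR, and differs from the ratio of IP to RNA-seq computed here. The deposited log2 fold change, p-value and FDR between genotypes are the authors' own comparison and were not used. Starts in the table count from 0, and positions here count from 1. Groups came from sample titles, and 0 per-sample columns were left out. Members and gene lists were chosen with earlier results of these data known. Every one of the 64 member peaks entered the fits, and no filter on low counts was used.

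Counts were fitted over all 9857 peaks with edgeR 4.0.16 in R 4.3.3 (quasi-likelihood test, TMM), with genotype as the term, separately for 11 IP and 11 RNA-seq libraries. IP relative to RNA-seq was an interaction term over 22 libraries with animal as a block, since titles pair both libraries of an animal. That fit gave all peaks 1 trend of spread. Calls needed a Benjamini-Hochberg adjusted p under 0.05. Alternatives were DESeq2 1.42.0, no TMM, a low-count filter, a fold threshold, each animal left out, other blocks, 1 peak per gene, and peaks up to 1000 bases. Fits of the other gene lists without db/m animal 2 or db/db animal 6 were chosen after seeing the data. Exact permutation tests used log2(CPM + 1). Ratios by animal used a prior count of 2. On simulated data the fits recovered 31 (IP) and 66 (RNA-seq) of 100 peaks changed by 1 on the log2 scale, and 84 and 78 of 100 changed by 2. Animals are the replicates. The floor of 3 reads for a count of 0 covers counting error only, and PCR copies were not separated. The SE of a fit and the SD over animals include the spread between animals. Genes were named if called between genotypes, if among the 4 highest or lowest ratios of IP to RNA-seq of either ribosome, if among the 6 highest levels per kb, or from a fixed set of reference and p53-linked genes. Rps6, Rps9, Rps24, Rpl7, Rpl37 and Rps10 were added after their values were seen. Start regions came from RefSeq. Python 3.11.15, numpy 2.4.6, pandas 2.3.3 and matplotlib 3.10.9 were also used.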

Additional observations from a re-analysis of the deposited data

Results flagged for a closer look

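Of 88 groups of 5 or 6 animals tested over the named peaks, 2 held an animal far from the others, where chance alone would give 4.4. The RNA-seq level of Rpl5 in db/db animal 5 was 501.9 CPM, which is 1588 reads, and that of the other 5 db/db mice was 360.3 to 408.4 CPM. The RNA-seq level of Rps14 in db/m animal 2 was 241.0 CPM, which is 765 reads, and that of the other 4 db/m mice was 317.3 to 345.6 CPM. Both animals are also the extremes of the cytosolic genes as a whole, db/db animal 5 the highest and db/m animal 2 the lowest. Rpl5 was still called in RNA-seq without db/db animal 5.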

How the results depend on the processing

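The 5 member peaks called in RNA-seq became 18 (18 higher, 0 lower) with library sizes that were not scaled by TMM, a setting that moved the median of all peaks from -0.01 to 0.07, so the Mrps5 calls depended on the scaling. They became 9 with DESeq2, 3 without peaks over 1000 bases, 3 with 1 peak per gene and 0 with an absolute log2 fold change over 1 required. With 1 animal left out they ranged from 3 to 8. Leaving out 1 of the db/db mice 1, 2 and 4, or of the db/m mice 1, 3, 4 and 5, gave 3, and leaving out db/db animal 6 gave 8. The 4 called in IP became 7 without TMM, 9 with DESeq2, 2 with 1 peak per gene and 0 with the fold threshold, and ranged from 2 to 5 with 1 animal left out. Leaving out 1 of the db/db mice 1, 2 and 4, or of the db/m mice 3, 4 and 5, gave 2. For IP relative to RNA-seq the count stayed at 0 under each alternative run. For IP over RNA-seq the 55 calls became 15 with the fold threshold and 32 with 1 peak per gene, and ranged from 54 to 56 with 1 animal left out. The cytosolic median of -0.68 became -0.58 without TMM, -0.78 with DESeq2, -0.77 with the low-count filter and -0.83 with 1 peak per gene, and ranged from -0.73 to -0.62 with 1 animal left out. The mitochondrial RNA-seq median ranged from -0.38 to -0.064 with 1 animal left out, and was -0.064 without db/m animal 4. No median of fold changes in IP or RNA-seq changed sign under the alternatives run. The animal numbers in the titles did not consistently pair the genotypes, since same-numbered animals correlated at -0.40 to 0.51 in RNA-seq and -0.24 to 0.20 in IP. With a replicate block of these numbers, 11 member peaks were called in RNA-seq, while calls over all 9857 peaks rose from 1111 to 1732. With 5 or 6 animals a group, the cytosolic median of 0.30 on the log2 scale was smaller than the changes simulated, 1 and 2, so how often a single gene with such a change would be called is not known.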
